A study of Mus musculus with 12 samples.

Results

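GL261 tumours of mice given temozolomide (TMZ) together with an antibody against PD-1 were compared with GL261 tumours of mice given TMZ alone, which asks what the antibody added to the alkylating agent. The arrays were chosen by their titles: 3 labelled Combination and 3 labelled TMZ, 6 of the 12 arrays of the series, with 22180 genes measured on each. GL261 is a mouse glioblastoma line that grows in C57BL/6 mice with an intact immune system; the cells were implanted in the brain of males that were 8 weeks old, and the tumour mass was taken on day 16. Both groups received TMZ at 30 mg/kg into the peritoneum, and the Combination group also received the antibody at 10 mg/kg into a vein, with 2 injections per week. The other 6 arrays, 3 Control and 3 Anti-PD-1 alone, entered the estimate of the spread and a test of the interaction. The labels do not state the days of dosing, what the TMZ animals received in place of the antibody, or whether each array came from a separate animal, so p values measure the spread between arrays, which may be technical.

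PD-1 is an inhibitory receptor on activated T cells; its ligands PD-L1 and PD-L2 dampen signalling from the T cell receptor, and blocking antibodies lift that restraint. T cells that recognise a tumour release interferon gamma, which induces chemokines, guanylate-binding proteins, immunity-related GTPases and the genes of antigen presentation in tumour cells, macrophages and microglia, and also induces PD-L1 itself. TMZ methylates DNA and stalls dividing cells, and it can also reduce lymphocyte numbers.

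Markers of brain cells gave strong signals on these arrays and markers of lymphocytes weak ones. Averaged over the 12 arrays, neuron markers lay at 9.52 on the log2 RMA scale, astrocyte markers at 8.43 and oligodendrocyte markers at 8.09, against 5.02 for T cell, 4.60 for cytotoxic lymphocyte and 4.84 for mitosis genes and 5.72 for the median gene; signals of different probe sets are not on a common scale, so this order is a description. In such bulk samples fewer cells of a type and less RNA per cell cannot be told apart. The 6 arrays correlated with each other at 0.989 to 0.991 over all probe sets, and their medians lay between 5.06 and 5.12. TMZ replicate 2 stood apart in its pituitary hormones: growth hormone (Gh) was at 10.57, prolactin (Prl) at 8.83 and the corticotropin precursor gene Pomc at 9.30 there, against 5.53, 4.61 and 5.04 in TMZ replicate 1. Combination replicate 1 had the next highest Gh (8.62) and Prl (6.62). Of 16 measured pituitary genes, a list written after these values were seen, 5 were highest in TMZ replicate 2, and the mean of the list, with each gene centred over the 12 arrays, was 0.85 on that array, 0.31 on Combination replicate 1 and between -0.27 and 0.09 on the other 10. TMZ replicate 2 also had the lowest score of the 6 arrays in 17 of 37 gene lists. Of 149 genes named by rule, leaving it out made the Combination minus TMZ difference smaller by over 1.5 times in 37 and larger in 6, and turned its sign in 3. Values without it are given beside some of the lists and genes that it moves, not beside all of them.

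No gene passed the test between Combination and TMZ. Of 22180 genes fitted with limma, 0 (0%) reached an adjusted p of 0.05; the smallest adjusted p was 0.67. At an unadjusted p under 0.05 there were 930 genes (4.19%), 390 higher in the Combination (1.76%) and 540 lower (2.43%). Every Combination array lay above every TMZ array in 844 genes (3.81%) and below in 1043 (4.7%). The difference was above 0 in 48.8% of genes, its median was -0.0025 on the log2 scale, and 98% of genes lay between -0.32 and 0.31. A difference of 1 log2 unit or more was seen in 2 genes (0.00902%), Pomc and H2-Aa, and in both the arrays overlapped. For the median gene the 95% confidence interval reached 0.20 log2 units to either side of the estimate. An unadjusted p under 0.05 was more frequent among dim genes: with the genes split by mean level into 3 equal parts, it was found in 6.92% of the dimmest, 4.61% of the middle and 1.04% of the brightest.

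The 10 nameable genes with the smallest p among those higher in every Combination array included several genes of lymphocytes and myeloid cells, and all missed the threshold. Stx11 (probe set 17239354), the syntaxin that cytotoxic cells need to release their granules, measured 4.28, 4.22 and 4.35 in the TMZ arrays and 4.53, 4.63 and 4.62 in the Combination arrays. The gap between the groups was wider than the range within either. Its difference was 0.31 ± 0.063 log2 (SE), with an unadjusted limma p of 0.000415 and an adjusted p of 1. Map3k14 (probe set 17270453), the NIK kinase of the noncanonical NF-kB pathway, measured 4.68, 4.87 and 4.89 in the TMZ arrays and 5.25, 5.15 and 5.28 in the Combination arrays, a difference of 0.41 ± 0.10. Katna1, which severs microtubules, measured 5.98, 5.80 and 6.0 in the TMZ arrays and 6.38, 6.33 and 6.32 in the Combination arrays, with its Combination arrays closer to each other than its TMZ arrays. Its difference was 0.41 ± 0.10, and 0.19 with its probe sets averaged. H2-DMb1 (probe set 17336422), which loads peptides onto MHC class II, measured 3.34, 3.52 and 3.59 in the TMZ arrays and 3.70, 3.75 and 3.86 in the Combination arrays, a difference of 0.29 ± 0.072. Siglech, a receptor of microglia and plasmacytoid dendritic cells, measured 6.48, 6.14 and 6.34 in the TMZ arrays and 6.65, 6.68 and 6.62 in the Combination arrays. Cd96, a receptor of T and natural killer cells that binds the poliovirus receptor, measured 3.67, 3.49 and 3.57 in the TMZ arrays and 3.76, 3.92 and 4.16 in the Combination arrays. In Siglech the TMZ arrays were the more scattered, with replicate 2 lowest, whereas in Cd96 the Combination arrays were. The other 4 were the beta-defensin gene Defb34 (0.34 ± 0.078), Pbld1 (0.26 ± 0.065), Samd3 (0.36 ± 0.090) and Wfikkn2, which encodes a secreted protease-inhibitor domain protein (0.39 ± 0.10).

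Among genes lower in every Combination array, the smallest p belonged to Gsdmc2 (probe set 17317442), a gasdermin gene, which measured 2.89, 3.06 and 3.06 in the TMZ arrays and 2.36, 2.49 and 2.22 in the Combination arrays. Its difference of -0.65 ± 0.11 was the largest of these 10, and it reached an unadjusted limma p of 7.5e-05 and an adjusted p of 0.67. Fam71a measured 3.80, 3.97 and 3.96 in the TMZ arrays and 3.34, 3.42 and 3.32 in the Combination arrays, a difference of -0.55 ± 0.10 with the same adjusted p. Both lay in the dimmest part of the genes. Msc (musculin), a repressor of the helix-loop-helix family, measured 5.61, 5.67 and 5.71 in the TMZ arrays and 5.31, 5.11 and 5.29 in the Combination arrays; its difference was -0.43 ± 0.090, and -0.11 with its probe sets averaged. Marco, a scavenger receptor of macrophages, measured 4.50, 4.47 and 4.54 in the TMZ arrays and 4.28, 4.25 and 4.23 in the Combination arrays, so that each group varied by less than the gap between them. Cebpd, a transcription factor gene of the acute inflammatory response, measured 4.49, 4.80 and 4.57 in the TMZ arrays and 4.27, 4.24 and 4.10 in the Combination arrays, with TMZ replicate 2 highest. Psmb3, a subunit of the proteasome core, measured 5.79, 5.82 and 5.79 in the TMZ arrays and 5.56, 5.54 and 5.42 in the Combination arrays. The other 4 were Inca1, an inhibitor of cyclin-dependent kinases (-0.36 ± 0.087), Micalcl (-0.30 ± 0.062), the retinol dehydrogenase gene Rdh19 (-0.61 ± 0.14) and Sun5, a nuclear envelope gene of sperm (-0.36 ± 0.083). Of these 20 genes 18 had a mean level below that of the median gene; Katna1 and Siglech were the exceptions. Their unadjusted p values ran from 7.5e-05 to 0.00289, and their adjusted p values from 0.67 to 1.

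**Figure D1:**
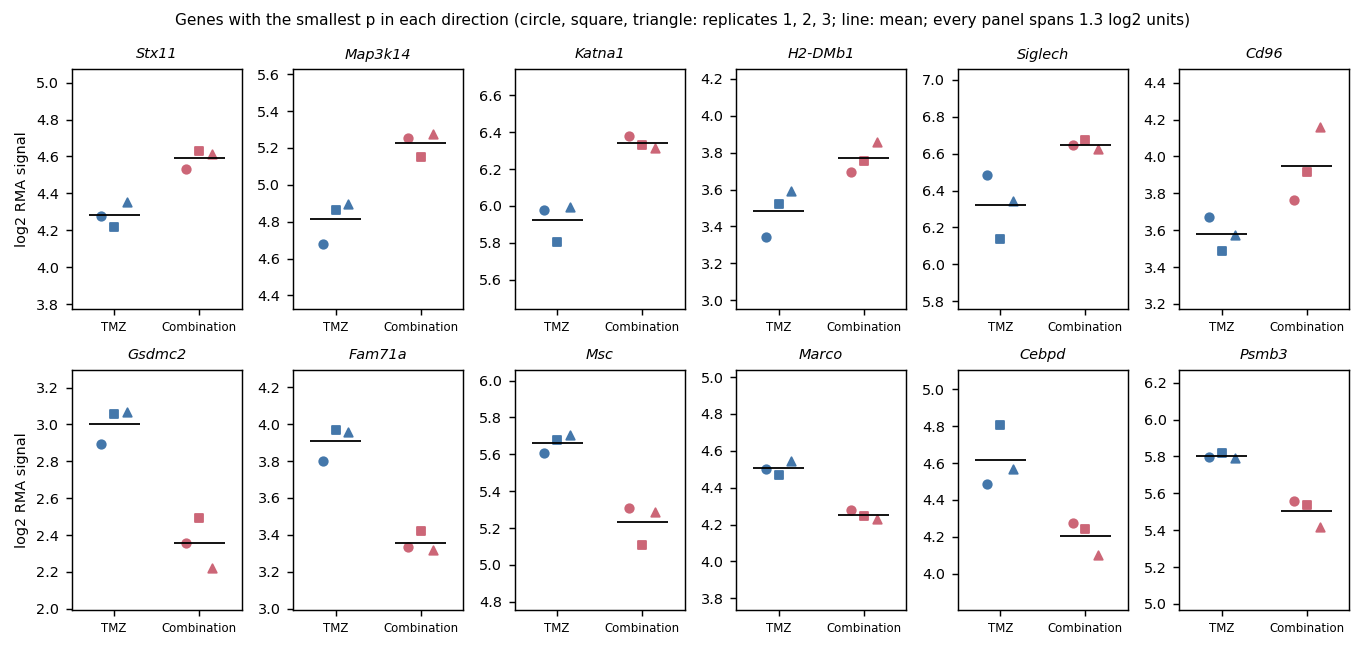
Log2 RMA signal of 12 genes on the 3 TMZ arrays (blue) and the 3 Combination arrays (red), with replicates as circle, square and triangle and the mean as a line; each panel spans the same number of log2 units. The arrays of the groups do not overlap in any panel, which the choice of genes required, and no gene passed an adjusted p of 0.05.

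Ranked by size, the largest differences without overlap were also of dim genes, and the first 2 belong to interferon-induced families. Ifi208, an interferon-inducible gene of the PYHIN family, measured 2.54, 1.91 and 2.0 in the TMZ arrays and 2.78, 3.49 and 2.61 in the Combination arrays, a difference of 0.81 ± 0.24. Oas1g, an oligoadenylate synthetase gene of the antiviral response, measured 3.80, 2.77 and 3.63 in the TMZ arrays and 3.85, 4.32 and 4.45 in the Combination arrays, a difference of 0.80 ± 0.39; the lowest Combination value barely exceeded the highest TMZ value. Csta2, of the stefin family of protease inhibitors, was at 0.73 ± 0.27, Fbxw19 at 0.63 ± 0.22 and the nucleoside transporter gene Slc28a2b at 0.60 ± 0.16. The largest negative differences were those of Gsdmc2, Rdh19, Pramel16 (-0.58 ± 0.17), Fam71a and the zinc finger gene Zfp872 (-0.48 ± 0.15). All 10 lay below the median gene in level, with no check that their probe sets exceed background in these values, and their unadjusted p values reached 0.0626. Without TMZ replicate 2 the difference was 0.69 for Ifi208 and 0.49 for Oas1g. Ifi208, Oas1g, Gsdmc2, Rdh19, Defb34, Fbxw19, Slc28a2b and Pramel16 have close relatives in the genome, and how far their probes also detect those is uncertain.

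**Figure D2:**
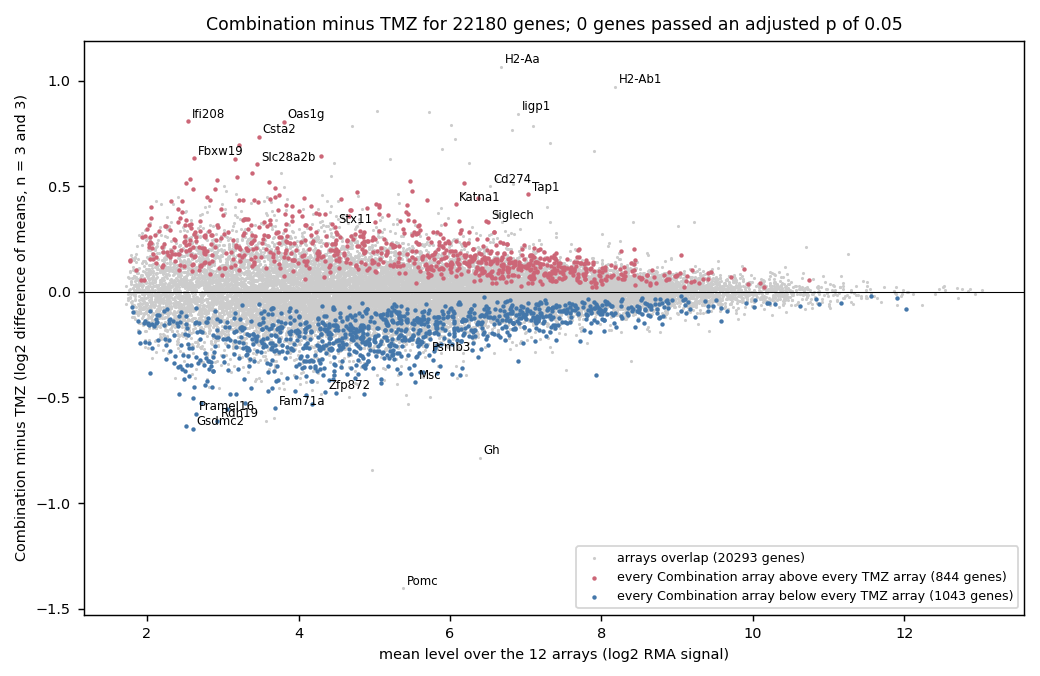
Combination minus TMZ (log2 difference of the means of 3 and 3 arrays, vertical) against the mean level over the 12 arrays (log2 RMA signal, horizontal) for 22180 genes. Red and blue mark the 844 and 1043 genes in which every Combination array lay above or below every TMZ array. The differences narrow with brightness, and the outlying genes H2-Aa, H2-Ab1 and Iigp1 are grey because their arrays overlap.

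The promoters of the interferon-linked genes that were higher in every Combination array are shown because elements that bind interferon-activated factors are known near the start of many such genes. Of 9 such named genes, 6 were in the RefSeq promoter table (GRCm38.p6), and in the 250 bases before the start site a core of the interferon-stimulated response element, GAAA, any 2 bases and GAAA again, searched on both strands, was found in 3: Oas1g (chr5:120887614-120887863, minus strand), Ifi208 (chr1:173673415-173673664, plus strand) and H2-T23 (chr17:36032702-36032951, minus strand). Capitals mark the match:
Oas1g: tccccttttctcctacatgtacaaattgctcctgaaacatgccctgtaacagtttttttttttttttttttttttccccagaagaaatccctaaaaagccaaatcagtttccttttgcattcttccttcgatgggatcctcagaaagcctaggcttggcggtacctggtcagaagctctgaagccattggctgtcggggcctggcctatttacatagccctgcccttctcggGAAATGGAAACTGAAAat
Ifi208: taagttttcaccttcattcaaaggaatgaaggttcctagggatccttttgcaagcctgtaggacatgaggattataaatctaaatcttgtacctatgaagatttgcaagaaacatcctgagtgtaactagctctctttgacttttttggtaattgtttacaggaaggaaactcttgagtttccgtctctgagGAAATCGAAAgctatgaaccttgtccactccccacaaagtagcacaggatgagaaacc
H2-T23: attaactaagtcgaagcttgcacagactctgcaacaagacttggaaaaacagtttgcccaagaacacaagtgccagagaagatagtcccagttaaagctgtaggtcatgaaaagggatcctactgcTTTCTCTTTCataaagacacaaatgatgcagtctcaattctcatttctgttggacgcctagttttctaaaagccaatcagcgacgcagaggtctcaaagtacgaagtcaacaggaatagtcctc
In Oas1g the matches begin 18 and 12 bases before the start site and overlap, in Ifi208 the match begins 58 bases before it, and in H2-T23, where it lies on the opposite strand, 124 bases before it. The same core was found in 2.95% of the 16990 promoters of measured genes. Oas1g and Ifi208 are in none of the interferon and antigen presentation lists and were added from the largest differences above. All 6 genes were picked as interferon-linked, and interferon genes that did not differ were not searched. The 3 of 6 beside this share therefore says nothing about Combination against TMZ. The gamma-activated site TTCNNNGAA, which reads the same on both strands, was found in H2-M3 alone of the 6 and in 6.82% of all promoters. H2-DMb1 and Tap1 held neither in this window.

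The targeted pathway itself showed small differences with wide intervals. Pdcd1, which encodes PD-1, measured 4.34, 3.86 and 4.50 in the TMZ arrays and 4.35, 4.23 and 4.61 in the Combination arrays, with a difference of 0.16 ± 0.17 (95% confidence interval -0.22 to 0.54); the groups overlapped, and without TMZ replicate 2 the difference was -0.024. Cd274, which encodes PD-L1, measured 6.76, 5.95 and 6.71 in the TMZ arrays and 6.81, 6.73 and 7.38 in the Combination arrays. Its difference was 0.50 ± 0.26 (95% confidence interval -0.062 to 1.06), with TMZ replicate 2 lowest and Combination replicate 3 highest, and it was 0.24 without TMZ replicate 2. Pdcd1lg2, which encodes PD-L2, was at -0.10 ± 0.12. Of 39 measured genes of the PD-1 pathway and other checkpoint and costimulatory receptors, 23 were higher and 16 lower, with a median of 0.033 beside -0.0025 over all genes. Every Combination array lay above every TMZ array in 4 of them and below in 1, beside 3.81% and 4.7% of all genes. Those above were Cd96, Tnfrsf9 (4-1BB, a costimulatory receptor; 0.22 ± 0.088) and, outside the naming rule and listed after their values were seen, the costimulatory ligand Cd86 (0.37 ± 0.18) and the costimulatory receptor Icos (0.18 ± 0.073). The gene below was Tnfsf9, which encodes the ligand of 4-1BB (-0.31 ± 0.12). Tnfrsf9 measured 4.65, 4.75 and 4.63 in the TMZ arrays and 4.85, 4.85 and 4.99 in the Combination arrays. Tnfsf9 measured 4.16, 4.17 and 4.0 in the TMZ arrays and 3.93, 3.95 and 3.55 in the Combination arrays. The median of the list was -0.022 without TMZ replicate 2.

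The groups overlapped in the fixed T cell and cytotoxic genes Cd3e, Cd4, Cd8a, Cd8b1, Ifng, Gzmb and Prf1, though not in every member of the lists. Cd3e, the epsilon chain of the T cell receptor complex, measured 5.21, 4.84 and 4.91 in the TMZ arrays and 4.97, 4.92 and 5.11 in the Combination arrays, a difference of 0.0096 ± 0.19 with a 95% confidence interval of -0.41 to 0.43. The co-receptor genes Cd4, Cd8a and Cd8b1 were at 0.13 ± 0.13, 0.13 ± 0.10 and -0.073 ± 0.11. Cd8a measured 3.99, 4.21 and 4.08 in the TMZ arrays and 4.12, 4.18 and 4.39 in the Combination arrays. Of 25 measured T cell genes 13 were higher, with a median of 0.0023, and -0.061 without TMZ replicate 2. Every Combination array lay above every TMZ array in 3 of the 25 and below in 1, beside 3.81% and 4.7% of all genes. Cd2, an adhesion receptor (0.31 ± 0.10), Lcp2, the SLP-76 adaptor (0.23 ± 0.078), and Sit1 (0.24 ± 0.11) had the smallest p. Lcp2 measured 6.68, 6.59 and 6.64 in the TMZ arrays and 6.74, 6.94 and 6.89 in the Combination arrays. Interferon gamma itself (Ifng) measured 4.45, 4.41 and 4.58 in the TMZ arrays and 4.58, 4.53 and 4.53 in the Combination arrays and differed by 0.069 ± 0.083 (95% confidence interval -0.11 to 0.25). Granzyme B (Gzmb) measured 4.21, 3.97 and 3.71 in the TMZ arrays and 3.58, 4.07 and 4.12 in the Combination arrays, a difference of -0.039 ± 0.23 that changed sign with the array left out, and perforin (Prf1) was at -0.091 ± 0.10. The 95% confidence interval of Gzmb ran from -0.54 to 0.46.

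Of 25 measured cytotoxic lymphocyte genes 14 were higher and 11 lower (median 0.024, but -0.013 without TMZ replicate 2 and 0.11 without TMZ replicate 1), with the lectin-like receptor Klrd1 at 0.27 ± 0.091, the chemokine receptor Cxcr6 at 0.45 ± 0.16 and the granule protein Nkg7 at 0.26 ± 0.12. Klrd1 measured 3.34, 3.44 and 3.40 in the TMZ arrays and 3.63, 3.81 and 3.54 in the Combination arrays, without overlap, whereas Cxcr6 overlapped through TMZ replicate 3 (3.60). Of the 25 cytotoxic lymphocyte genes 2 lay above in every array and 0 below, beside 3.81% and 4.7% of all genes. Natural killer cell genes were higher in 12 of 14, beside 48.8% of all genes (median 0.079). They were led by the Ly49 receptor gene Klra9 (0.35 ± 0.11), with Sh2d1b1 at 0.23 ± 0.18 and Klrb1c at 0.19 ± 0.16. Of the 14, 1 lay above in every array and 0 below, beside 3.81% and 4.7% of all genes. These were dim genes, with a mean level of 3.82 beside 5.72 for the median gene. Foxp3, the factor that defines regulatory T cells, measured 4.97, 5.0 and 4.36 in the TMZ arrays and 4.11, 4.54 and 4.58 in the Combination arrays, a difference of -0.36 ± 0.17 (95% confidence interval -0.74 to 0.010). In the regulatory T cell list 8 of 15 genes were higher (median 0.034; Ikzf2 0.14, Itgae 0.12). Factors of T cell exhaustion and activation had a median of -0.029 with 9 of 19 higher: Batf was at -0.15 ± 0.056, Slamf6 at 0.17 ± 0.078 and Nr4a1 at -0.19 ± 0.12. Among B cell genes the 2 chains of the receptor's signalling unit went opposite ways, Cd79a at 0.27 ± 0.082 and Cd79b at -0.27 ± 0.12, each without overlap, and Blnk was at 0.17; 10 of 14 B cell genes were higher (median 0.013). Plasma cell genes had a median of -0.0083 with 4 of 11 higher (Mzb1 -0.15, Sdc1 -0.20, Pou2af1 -0.20). With its probe sets averaged Sdc1 was at -0.025.

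Interferon-induced and antigen presentation genes had some of the larger differences, higher in the Combination, and TMZ replicate 2 was the lowest of the 6 arrays in Iigp1, Cxcl9, Cxcl10, Cd274, Tap1, H2-Aa and H2-Ab1. Iigp1, an immunity-related GTPase that interferon gamma induces, measured 7.41, 5.88 and 6.64 in the TMZ arrays and 7.09, 7.61 and 7.74 in the Combination arrays, and its difference of 0.84 ± 0.55 was 0.46 without TMZ replicate 2 and 1.22 without TMZ replicate 1. Cxcl10, which attracts T cells through CXCR3, measured 6.83, 5.05 and 5.46 in the TMZ arrays and 5.78, 6.98 and 6.42 in the Combination arrays; its difference was 0.61 ± 0.60 (95% confidence interval -0.71 to 1.93) and 0.25 without TMZ replicate 2. Within both genes TMZ replicate 1 lay above Combination replicate 1. Cxcl9, another ligand of CXCR3, was at 0.53 ± 0.56 (0.13 without TMZ replicate 2), Irf1, a transcription factor of the response, at 0.32 ± 0.20 (0.18), and Gbp6, a guanylate-binding protein, at 0.26 ± 0.15. In the interferon gamma response list 20 of 26 measured genes were higher, with a median of 0.16, the highest of the 37 lists, beside 48.8% and -0.0025 over all genes. Of the 26, Ciita alone lay above in every array, beside 3.81% of all genes. Scores of the list, its mean with each gene centred over the 12 arrays, were 0.25, -0.42 and -0.13 on the TMZ arrays and -0.059, 0.24 and 0.26 on the Combination arrays. The range within TMZ was thus wider than the distance between the group means, and the median was 0.074 without TMZ replicate 2 and 0.30 without TMZ replicate 1.

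The type I interferon list had 32 of 38 genes higher and a median of 0.12, 0.064 without TMZ replicate 2. Its antiviral GTPases Mx1 and Mx2 were at 0.27 ± 0.087 and 0.44 ± 0.17, each without overlap: Mx2 measured 4.03, 4.51 and 4.37 in the TMZ arrays and 4.53, 4.80 and 4.90 in the Combination arrays, with TMZ replicate 2 the highest of its group. They were the 2 of 38 members that lay above in every array, beside 3.81% of all genes. Ifit3, an antiviral gene of the same response, was at -0.27 ± 0.14. In MHC class I presentation 16 of 19 genes were higher, beside 48.8% of all genes (median 0.059, and 0.016 without TMZ replicate 2), 4 of them in every array, beside 3.81% of all genes: the named Tap1, H2-T23 and H2-M3, and Tap2, the partner of Tap1, outside the naming rule (0.26 ± 0.18). Tap1 (probe set 17336432), which pumps peptides into the endoplasmic reticulum, measured 7.05, 6.44 and 6.82 in the TMZ arrays and 7.10, 7.13 and 7.46 in the Combination arrays, a difference of 0.46 ± 0.27 (95% confidence interval -0.14 to 1.06). Without TMZ replicate 2 the difference of Tap1 was 0.29. H2-T23 was at 0.34 ± 0.23 and H2-M3 at 0.23 ± 0.10, both nonclassical class I genes. In MHC class II presentation 14 of 17 were higher (median 0.11, and 0.024 without TMZ replicate 2), 2 of them, H2-DMb1 and the master regulator Ciita (0.11 ± 0.075), in every array, beside 3.81% of all genes; H2-DMa was at 0.21 ± 0.15.

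The class II chain genes H2-Aa and H2-Ab1 were singled out after their values were seen, because H2-Aa had the largest positive difference of all 22180 genes. H2-Aa measured 7.49, 4.58 and 6.70 in the TMZ arrays and 6.97, 7.33 and 7.67 in the Combination arrays. The mean was 2.09-fold higher in the Combination, but the SE of 0.80 was large beside the difference of 1.07, and TMZ replicate 1 lay above 2 of the 3 Combination arrays. Without TMZ replicate 2 the difference was 0.23, and without TMZ replicate 1 it was 1.68. H2-Ab1 measured 8.89, 6.32 and 8.29 in the TMZ arrays and 8.37, 9.05 and 8.99 in the Combination arrays, a difference of 0.97 ± 0.73 over all arrays and 0.21 without TMZ replicate 2. The inhibitory receptor gene Lilrb4a was at 0.85 ± 0.55 (0.52 without that array) and the GTPase gene Igtp at 0.79 ± 0.62 (0.23); both were also picked after their values were seen. The pituitary hormone genes moved with the same array: Pomc had the most negative difference of all genes, -1.40 ± 0.85, and it was -0.0044 without TMZ replicate 2. Whether pituitary tissue in that sample had a part in its low class II and interferon signals was not tested.

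**Figure D3:**
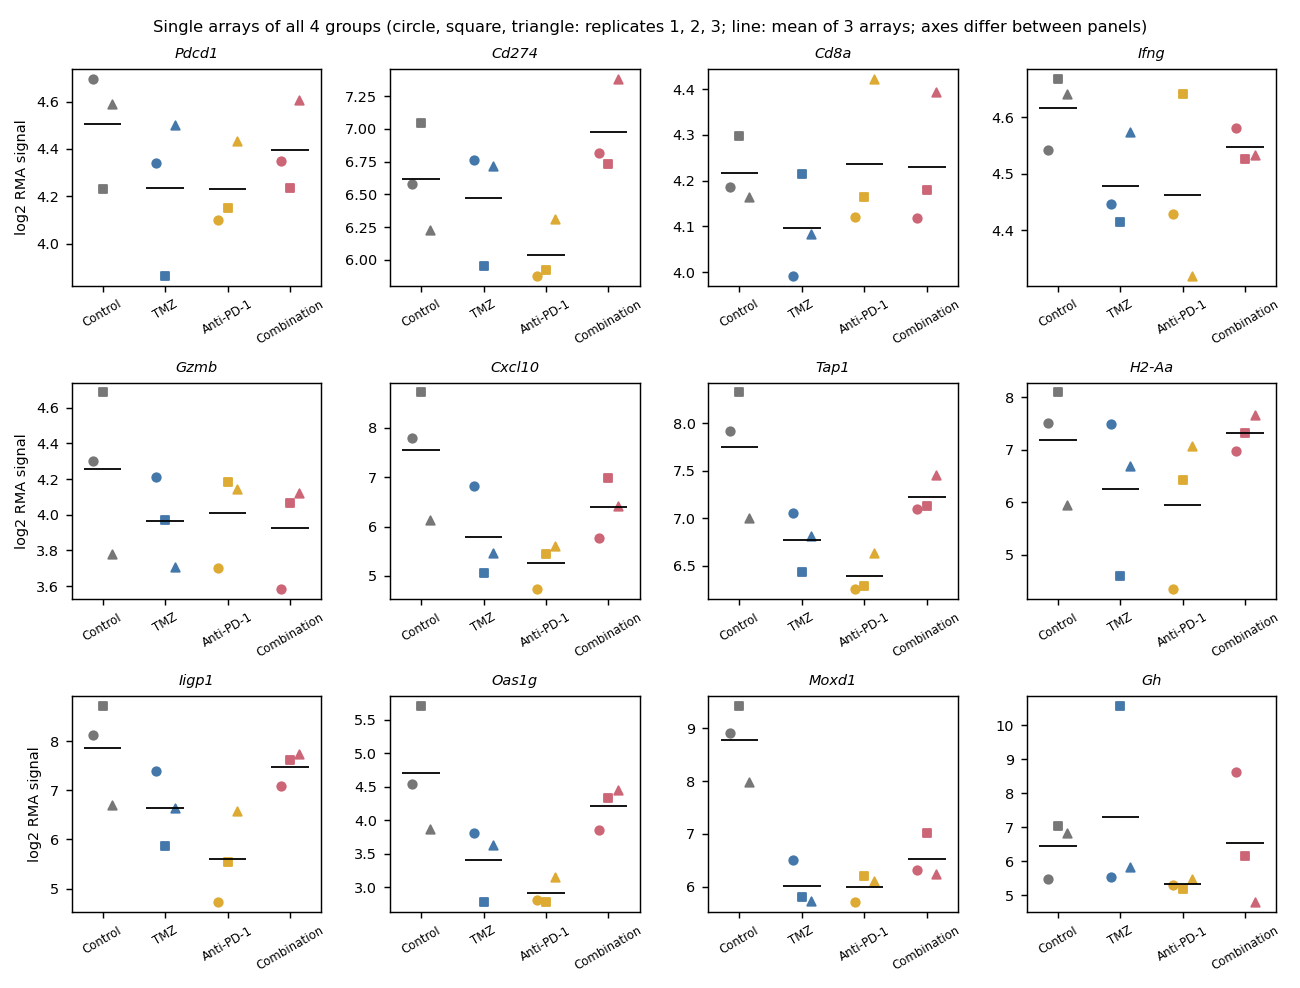
Log2 RMA signal of 12 genes on the 3 arrays of each of the 4 groups, with replicates as circle, square and triangle and the mean of 3 arrays as a line; the vertical axes differ between panels. TMZ replicate 2 (blue square) is the lowest of the TMZ and Combination arrays in Cd274, Cxcl10, Tap1, H2-Aa, Iigp1 and Oas1g and the highest array of all in Gh.

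Microglia and macrophage lists leaned the same way by smaller amounts. Of 18 microglia genes 13 were higher (median 0.13), 2 of them in every array beside 3.81% of all genes: Siglech and Tmem119, a marker of resident microglia, which measured 6.63, 6.54 and 6.61 in the TMZ arrays and 6.80, 6.69 and 6.83 in the Combination arrays (0.18 ± 0.059). P2ry12, the purinergic receptor of resting microglia, was at 0.15 ± 0.091 and Fcrls at 0.18 ± 0.10. Without TMZ replicate 2 P2ry12 was at 0.064 and Fcrls at 0.056. The microglia median was 0.049 without TMZ replicate 2, 0.21 without TMZ replicate 1 and 0.083 without Combination replicate 3. Of 25 genes of monocytes and blood-derived macrophages 18 were higher (median 0.074), with the integrin Itga4 at 0.15 ± 0.083, Ms4a4c at 0.31 ± 0.19 and Fabp5 at 0.11 ± 0.085. Without TMZ replicate 3 this median was 0.0084. Lipid-associated and alternatively activated macrophage genes were higher in 16 of 24 (median 0.050, and -0.0046 without TMZ replicate 3). Itgax was at 0.35, and 0.14 without TMZ replicate 2, with Fabp4 and the lectin Mgl2 at -0.24 and -0.27. Complement and scavenger genes were higher in 19 of 24 (median 0.11, and 0.057 without TMZ replicate 2): the lysosomal protein Cd68 was at 0.26 ± 0.14, the scavenger receptor Msr1 at 0.44 ± 0.26 and C1qb, a chain of complement C1q, at 0.33 ± 0.21. C1qb measured 9.39, 8.69 and 8.98 in the TMZ arrays and 9.22, 9.27 and 9.55 in the Combination arrays, again with TMZ replicate 2 lowest and TMZ replicate 1 within the Combination range; without TMZ replicate 2 its difference was 0.17.

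Neutrophil genes leaned the other way, with 7 of 20 higher (median -0.029, and 0.029 without TMZ replicate 2). S100a8, a calgranulin of neutrophils, measured 2.77, 2.87 and 2.80 in the TMZ arrays and 2.44, 2.49 and 2.51 in the Combination arrays, a difference of -0.34 ± 0.087 at a signal near the bottom of the scale; Hdc was at -0.22 ± 0.079 and Ngp at -0.19. Dendritic cell genes had a median of -0.0097 with 9 of 20 higher: Ccl22, which attracts regulatory T cells, was at 0.36 ± 0.12 and Xcr1, the receptor of cross-presenting dendritic cells, at -0.23 ± 0.10. Among 47 chemokine and receptor genes 26 were higher (median 0.022, and -0.013 without TMZ replicate 2), with Cxcr5 at -0.35 ± 0.11 and, like Cd79b, lower in every array. Inflammatory cytokines and NF-kB targets had a median of -0.0014 with 12 of 25 higher (Tnfaip2 0.29, Il15 -0.24, Nfkbiz 0.14). This median was 0.017 without TMZ replicate 2.

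**Figure D4:**
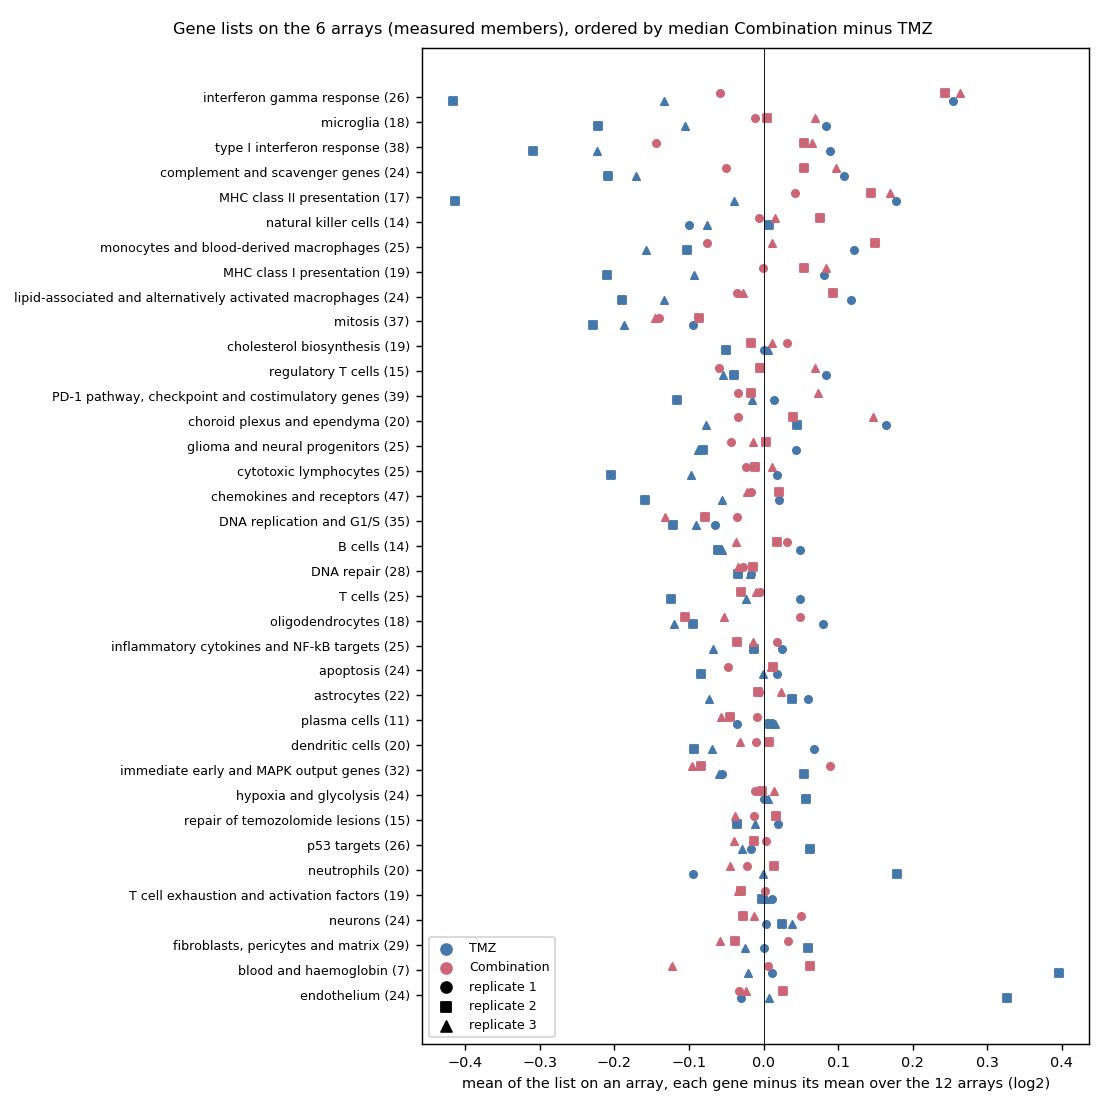
Score of each of 37 gene lists on the 3 TMZ (blue) and 3 Combination (red) arrays, ordered by the median difference; the score is the mean over the list's measured genes (their number in brackets) of the log2 signal after centring each gene over the 12 arrays. The groups overlap in all 37 lists, and TMZ replicate 2 (blue square) is the lowest of the 6 arrays in 17 of them and the highest in 6.

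Cell cycle and damage genes differed by small amounts. Mki67, the proliferation marker Ki-67, measured 5.86, 5.19 and 5.41 in the TMZ arrays and 5.44, 5.51 and 5.56 in the Combination arrays, a difference of 0.013 ± 0.20 with a 95% confidence interval of -0.42 to 0.45. Top2a, the topoisomerase of dividing cells, measured 5.03, 4.29 and 4.87 in the TMZ arrays and 4.68, 5.29 and 5.11 in the Combination arrays (0.30 ± 0.27, and 0.078 without TMZ replicate 2). Of 37 mitosis genes 24 were higher (median 0.048, and 0.015 without TMZ replicate 2), including the spindle checkpoint genes Bub1b (0.27 ± 0.10) and Mad2l1 (0.22 ± 0.10) and the kinase Nek2 (0.19). Of 35 replication and G1/S genes 20 were higher (median 0.014): Dtl, which directs the destruction of replication licensing factors, measured 3.24, 3.25 and 3.35 in the TMZ arrays and 3.82, 3.86 and 3.54 in the Combination arrays (0.46 ± 0.14), without overlap. The transcription factor E2f2 was at -0.37 ± 0.14 and the polymerase subunit Pold1 at -0.26 ± 0.12. Cdkn1a, the p21 gene that p53 induces after DNA damage, measured 7.70, 7.90 and 7.72 in the TMZ arrays and 7.53, 7.56 and 7.54 in the Combination arrays and was lower in every Combination array (-0.23 ± 0.12). Of the 26 measured p53 targets 10 were higher and 16 lower (median -0.021): Pmaip1, which encodes the death protein NOXA, was at 0.19 ± 0.081 and Pidd1 at -0.13.

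Mgmt, which encodes the transferase that reverses methylation of guanine by TMZ, measured 4.99, 4.71 and 4.86 in the TMZ arrays and 4.90, 4.92 and 4.60 in the Combination arrays and differed by -0.047 ± 0.10 (95% confidence interval -0.26 to 0.16). Of 15 measured genes that repair TMZ lesions 6 were higher (median -0.020; Pms1 -0.089, Polb 0.080, Alkbh3 0.076). Of 28 DNA repair genes 14 were higher (median 0.011), with the Fanconi gene Fancd2 at -0.23 ± 0.086, Lig4 at 0.16 and Brca2 at -0.23. Apoptosis genes had a median of -0.0057 with 11 of 24 higher (Bcl2l1 -0.11, Tradd 0.21, Birc2 0.12). Immediate early and MAPK output genes had a median of -0.015 with 15 of 32 higher (Ccn1 0.24, Junb -0.16, Fosb -0.16). This median was 0.017 without TMZ replicate 2. Hypoxia and glycolysis genes had a median of -0.018 with 11 of 24 higher (Pfkfb3 0.16, Slc2a1 -0.19, Gapdh -0.082). Cholesterol genes had a median of 0.043 with 13 of 19 higher (Dhcr7 0.079, Ebp -0.072, Stard4 0.073). The cholesterol median was 0.0025 without TMZ replicate 2. Gapdh, the glycolytic enzyme used as a reference gene, was lower in every Combination array, at 12.02, 12.07 and 12.04 with TMZ and 11.98, 11.93 and 11.97 with the Combination, a difference of -0.082 ± 0.054 that was -0.018 with its probe sets averaged.

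No glioma, brain or vessel gene passed the test either. Glioma and neural progenitor genes had 15 of 25 higher and a median of 0.028, and -0.0086 without TMZ replicate 2. Tenascin C (Tnc) was at 0.24 ± 0.11, the CD133 gene Prom1 at -0.23 ± 0.11 and Dll3 at -0.15. Neuron genes had 9 of 24 higher (median -0.031); Scn1a, a sodium channel gene, was lower in every Combination array (-0.15 ± 0.074), with Slc17a6 at -0.18 and Gad2 at -0.083. Astrocyte (-0.0067; Gjb6 -0.12, Agt -0.29, S100b 0.13) and oligodendrocyte (0.00030; Hapln2 -0.17, Gjb1 0.17, Aspa 0.13) medians were near 0, with 11 of 22 and 9 of 18 genes higher. Endothelial genes had the lowest median of the 37 lists, -0.090, with 5 of 24 higher. Mfsd2a, a lipid transporter of the blood-brain barrier, was at -0.19 ± 0.10, Abcg2, an efflux pump, at -0.22 ± 0.11 and Ly6c1 at -0.43 ± 0.24. The endothelial score was 0.33 on TMZ replicate 2 and between -0.03 and 0.03 on the other 5 arrays, and without TMZ replicate 2 the median was -0.0050. That array also held the highest Gh, Prl and Pomc, whose part in the endothelial values was not tested. Fibroblast, pericyte and matrix genes had 7 of 29 higher (median -0.047, and 0.0024 without TMZ replicate 2). Lum (0.23) and Anpep (0.25) lay above in every array, beside 3.81% of all genes, and Thbs1 was at -0.26. Lum was at 0.095 without TMZ replicate 2. Choroid plexus and ependymal genes had 12 of 20 higher (0.030; Ccdc153 -0.17, Aqp1 0.15, Dynlrb2 -0.23), and blood genes had 2 of 7 higher (-0.086, and 0.011 without TMZ replicate 2; Gp9 -0.35, Ppbp -0.48, Pf4 0.11).

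The 22 genes (0.0992%) that passed between TMZ and Control were followed into the Combination. These comparisons share the TMZ arrays, which chose the genes, so the values are a description. In 21 of the 22 the Combination mean lay between the TMZ and Control means, the exception being the cytokinesis gene Ect2. Picking genes by their TMZ values favours such a position by itself. In 4, Dtl, H2-DMb1, Inca1 and the kinetochore gene Spc25, the Combination arrays did not overlap the TMZ arrays. Over all genes every Combination array lay above every TMZ array in 3.81% and below in 4.7%. Moxd1, which encodes a monooxygenase and was the gene furthest below Control after TMZ, measured 6.51, 5.79 and 5.73 in the TMZ arrays and 6.31, 7.03 and 6.23 in the Combination arrays and 8.91, 9.43 and 7.99 in Control; the Combination was 0.51 ± 0.34 above TMZ and differed from Control by -2.25. Ccna2, the cyclin A gene, averaged 6.24 in Control, 5.05 in TMZ and 5.18 in the Combination, and Ccnd1, a cyclin D gene, 8.22, 7.42 and 7.62. Atp13a5, a P-type ATPase gene linked to pericytes, averaged 6.22, 6.72 and 6.67. Of the 22 genes 0 passed between Combination and Control in limma, where 0 of 22180 genes passed (0%) and 2576 had an unadjusted p under 0.05 (11.6%). The limma adjusted p of the 22 genes in that comparison ran from 0.064 (Neb and Atp13a5 among them) to 0.33 (H2-DMb1). Neb differed from Control by -0.65 with TMZ and -0.63 with the Combination, and H2-DMb1 by -0.49 and -0.20. For Moxd1 the SE of the -2.25 was 0.34 (adjusted p = 0.073). Missing the threshold therefore does not show that a change was undone.

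Whether the antibody acted differently on top of TMZ than alone was tested as an interaction, the difference of Combination from TMZ minus that of Anti-PD-1 from Control. These contrasts share no array. In the Anti-PD-1 minus Control contrast 65 genes passed (0.293%) and 84 differed by 1 log2 unit or more (0.379%), against 0 and 2 for Combination minus TMZ. Over all 22180 genes the 2 contrasts had the same sign in about as many genes as not and correlated at -0.12 (Pearson, across genes measured on arrays normalised together; genes are not independent replicates). The interaction passed for 1 gene (0.00451%), 3830403N18Rik, named after its value was seen; 1978 genes (8.92%) had an unadjusted p under 0.05. It measured 3.96, 3.77 and 3.65 in Control, 2.67, 2.65 and 2.72 with Anti-PD-1, 2.96, 2.75 and 2.77 with TMZ and 3.19, 3.02 and 2.95 with the Combination, an interaction of 1.33 ± 0.13 log2 (adjusted p = 0.00909), and its call was lost without TMZ replicate 2, Anti-PD-1 replicate 1 or Anti-PD-1 replicate 2. Without Control replicate 3 the count was 198, and leaving out each of the other 11 arrays gave 0 to 2; Control replicates 1 and 2 stood apart from Control replicate 3 on the first principal component, at -20.1 and -26.4 against -1.28.

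Several named genes differed in opposite directions in the 2 contrasts and missed the threshold of the interaction. Over all genes the Anti-PD-1 minus Control difference was below 0 in 47.6%, with every Anti-PD-1 array below every Control array in 8.33% and above in 10.3%. Stx11 was 0.31 for Combination minus TMZ and -0.31 for Anti-PD-1 minus Control (interaction 0.62 ± 0.090, adjusted p = 0.113). Tap1 was at 0.46 and -1.36 (interaction 1.82 ± 0.39, adjusted p = 0.20), Cxcl10 at 0.61 and -2.29, Cd274 at 0.50 and -0.58, and Top2a at 0.30 and -1.86. By list, the median of the interferon gamma response was 0.16 with TMZ and -0.88 without it, that of MHC class I presentation 0.059 and -0.53, and that of mitosis 0.048 and -0.61. TMZ alone already lay below Control in these lists, and so did the Combination. Their medians against Control were -0.47 and -0.35 for the interferon gamma response, -0.37 and -0.25 for MHC class I presentation, and -0.60 and -0.58 for mitosis. A positive interaction here therefore does not show that the antibody raised these genes on top of TMZ. The interaction had an unadjusted p under 0.05 in 18 of 26, 13 of 19 and 32 of 37 of their genes, beside 8.92% of all genes. Neuron genes moved with the same contrast: 23 of 24 were higher with Anti-PD-1 than in Control (median 0.087), with the lowest scores on Control replicates 1 and 2. With the neuron score as a covariate the interaction had an unadjusted p under 0.05 in 897 genes in place of 1978, and 0 passed. The score comes from the same arrays and moved with the contrast, so the covariate can also take out part of the group difference. Whether the share of neurons had a part in the interaction was not tested. The interaction also uses the Control arrays, in which the interferon gamma score was 0.58, 0.88 and -0.086; replicate 3 lay below the lowest Combination score.

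**Figure D5:**
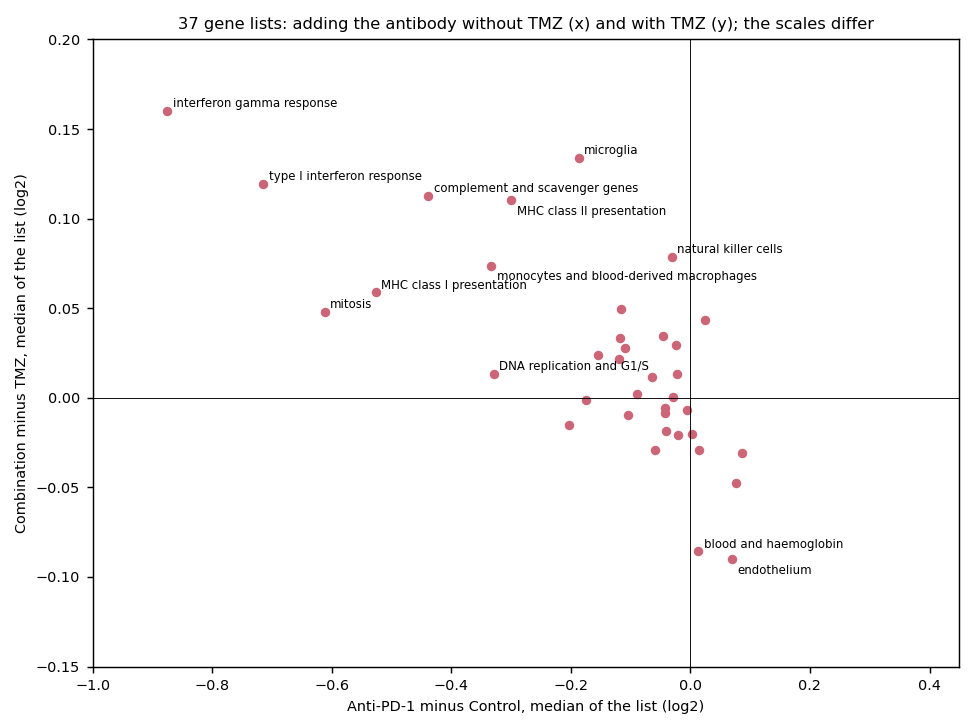
Median log2 difference of each of 37 gene lists for Anti-PD-1 minus Control (horizontal, the antibody without TMZ) and for Combination minus TMZ (vertical, the antibody with TMZ); each point is a list, the 2 contrasts share no array, and the scales differ. The vertical medians lie between -0.09 and 0.16, while the horizontal ones reach -0.88 for the interferon gamma response.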

How the data were processed

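Total RNA of tumour masses was hybridised to Affymetrix whole-transcript mouse arrays. The deposited values are log2 signals that the authors made with RMA in the Affymetrix Expression Console, per the submitters' processing notes; versions are not given in the sources used here. RMA corrects background, quantile normalises arrays together, which removes overall shifts, and summarises probes. Of 41345 probe sets on 12 arrays, 23521 had exactly 1 gene symbol in the array annotation, 1814 had several and 16010 were not listed; the probe set with the highest mean was kept for each of 22180 genes, with no filter on brightness. All 12 arrays were fitted with limma 3.58.1 in R 4.3.3 (a mean per group, eBayes, 8 residual degrees of freedom). Two-sided p values were adjusted by Benjamini-Hochberg across the 22180 genes, with a threshold of 0.05. The fit was tested on simulated data. Differences are Combination minus TMZ on the log2 scale, with SE.

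Named genes were the 10 with the smallest p in each direction and the 5 largest differences, among genes whose groups did not overlap, 3 members per list with the smallest p, and 20 fixed genes, 1 of which is not reported here. Predicted genes, receptors of smell and taste, segments of immune receptors and small RNA genes were counted and not named. The 37 lists held 973 entries, 874 measured (822 distinct genes, 7 to 47 per list), written from general knowledge. Members and lists were chosen with earlier results of these data known. No list was tested; counts are read beside the shares over all genes. Arrays give no depth, and their number, 3 per group, limits precision. Alternatives concerned the replicate number, arrays left out, the groups fitted, the variance prior, array weights, centring, a neuron covariate, dim genes and the choice of probe sets. Promoters came from RefSeq's GRCm38.p6 table; the build of the array annotation is not given in the sources used here.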

Additional observations from a re-analysis of the deposited data

Results flagged for a closer look

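For 18 genes named above, the antibody's contrast with TMZ and that without TMZ stood apart. For 3830403N18Rik the interaction passed its test (1.33 log2, adjusted p = 0.00909). In the other 17 genes the groups did not overlap in either contrast and went opposite ways. Only named genes were searched, many of them named for not overlapping between Combination and TMZ. The share of all genes that do both was not counted. Over all genes every Combination array lay above every TMZ array in 3.81% and below in 4.7%. Every Anti-PD-1 array lay below every Control array in 8.33% and above in 10.3%. In these 17 genes the interaction missed the threshold, with an adjusted p of 0.113 to 0.653 in limma. Among antigen presentation and antiviral genes the interaction was 2.60 for Oas1g, 1.82 for Tap1, 1.28 for H2-T23, 0.71 for Mx1, 0.56 for H2-DMb1 and 0.48 for Ciita. Among genes of immune cells and their signalling it was 0.67 for Map3k14, 0.67 for Lcp2, 0.62 for Stx11, 0.58 for Tnfrsf9 and 0.43 for Siglech. For the cell cycle genes Dtl, Mad2l1 and Inca1 it was 1.08, 0.67 and -0.63, and for Csta2, Pms1 and Zfp872 it was 1.57, -0.12 and -0.87. Groups of 3 arrays are too small for a test of single arrays.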

How the results depend on the processing

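Between Combination and TMZ, limma called 0 genes under each of 23 alternatives, with 325 to 1742 genes at an unadjusted p under 0.05 and a smallest adjusted p from 0.212 to 1. With the replicate number as a block the count was 0 (952 at an unadjusted p under 0.05). Deviations of same-numbered arrays correlated at -0.085, -0.024 and 0.065, and those of differently numbered arrays at -0.097 to 0.11. With 3 arrays a group these values cannot show whether same-numbered arrays were handled together. For the interaction the count of 1 became 12 with a variance trend, and 0 with the neuron score as covariate, among genes above the median level, over all probe sets, and without both arrays with high pituitary hormones (an alternative added after seeing the data); it was 1 with the replicate block and 0 to 198 with an array left out. The causes were not tested.

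Of 157 named genes, 0 passed between Combination and TMZ under these alternatives. Signs turned for Mki67 (-0.079 with the neuron covariate), Slamf6 (-0.036 with probe sets averaged, which shrank 4 others by over 1.5 times) and, without both high-pituitary arrays, Cd3e (-0.046), Gzmb (0.13), Mki67 (-0.10), Pdcd1 (-0.000678), Pdcd1lg2 (0.047), Polb (-0.011) and Slc2a1 (0.024). With an array left out in turn the ranges were -0.063 to 0.12 for Cd3e, -1.84 to 0.84 for Gh, -0.17 to 0.13 for Gzmb, -0.12 to 0.058 for Mgmt, -0.14 to 0.20 for Mki67, -0.024 to 0.29 for Pdcd1 and -1.58 to 0.58 for Prl. List medians kept their sign without each of the 6 arrays in turn in 14 of 37 lists, 11 above and 3 below 0, and changed sign in 23. Arrays give no depth; 3 arrays a group limit these comparisons.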
